A study of Mus musculus with 16 samples.

Results

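The 8 genes described here, measured in mouse liver, encode regulators of transcription that carry the circadian clock's signal to other genes or act back on the clock. They are Dbp, Tef, Hlf, Nfil3, Bhlhe40, Bhlhe41, Ciart and Rora. Each was matched by its exact symbol, and all 8 were found among the 25803 genes of the joined count tables and passed the filter on low counts, as did 14488 genes in all. Male mice had been fed a high-fat diet for 12 weeks. Bulk poly-A RNA sequencing of liver covered 4 groups of 4 libraries: control mice and mice with a liver knockout of Cpt1a (CPT1a LKO, here LKO), each killed after a 16 h fast or after a 16 h fast and 6 h of refeeding. The diet and the fast were thus common to all 4 groups. The driver of the knockout, the strain and the age of the mice are not given in the sources used here. The series' title concerns plasma cholesterol after loss of hepatic Cpt1a, and the clock is not named in it.

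The core clock is a feedback loop in which CLOCK and BMAL1 activate the Per and Cry genes through E-box elements, and PER and CRY proteins repress CLOCK and BMAL1. The genes described here take that rhythm further or act back on the loop. DBP, TEF and HLF are the PAR bZIP activators, which bind D-box elements of many metabolic genes of the liver. NFIL3 (E4BP4) represses through the same D-boxes. BHLHE40 and BHLHE41 (DEC1 and DEC2) and CIART (CHRONO) repress CLOCK and BMAL1 at E-boxes. RORA activates Bmal1 and other genes through RORE elements, where it competes with the REV-ERB repressors. Hepatic rhythms follow feeding as well as light, so that these genes are known to shift with the time of food intake.

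The promoter windows of 4 of the genes are shown because they differ in the number of E-box matches. Ciart, Bhlhe41 and Dbp had the widest ranges of level between libraries, and Tef is the remaining gene with an E-box in its window. Bases outside the windows were not searched, so a window without a match does not show that the gene lacks E-boxes. RefSeq's GRCm38.p6 table held 8 windows for 7 of the 8 genes. The 250 bases before each annotated start are printed 5′ to 3′ on the gene's strand, and capitals mark an E-box (CACGTG). Of the 2 Tef windows the second in the table is shown.
Ciart: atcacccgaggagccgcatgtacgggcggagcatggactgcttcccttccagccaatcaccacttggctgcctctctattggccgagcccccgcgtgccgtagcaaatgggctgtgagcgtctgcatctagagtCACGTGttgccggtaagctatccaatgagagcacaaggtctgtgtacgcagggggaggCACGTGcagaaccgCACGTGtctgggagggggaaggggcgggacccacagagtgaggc
Bhlhe41: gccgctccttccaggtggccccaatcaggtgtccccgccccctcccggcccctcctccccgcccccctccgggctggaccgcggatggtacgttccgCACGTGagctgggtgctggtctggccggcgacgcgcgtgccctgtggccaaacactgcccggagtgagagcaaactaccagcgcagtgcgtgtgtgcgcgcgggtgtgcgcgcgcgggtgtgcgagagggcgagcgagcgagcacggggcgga
Tef: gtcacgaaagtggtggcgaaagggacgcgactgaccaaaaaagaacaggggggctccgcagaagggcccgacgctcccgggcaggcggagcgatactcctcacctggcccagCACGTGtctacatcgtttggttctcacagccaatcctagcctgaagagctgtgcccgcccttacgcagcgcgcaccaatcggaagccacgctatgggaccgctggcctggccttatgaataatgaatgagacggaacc
Dbp: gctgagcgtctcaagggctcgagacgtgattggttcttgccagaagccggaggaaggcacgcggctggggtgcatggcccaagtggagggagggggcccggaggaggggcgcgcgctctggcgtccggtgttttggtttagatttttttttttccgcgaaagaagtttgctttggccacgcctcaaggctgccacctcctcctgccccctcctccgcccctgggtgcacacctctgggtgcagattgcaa
These windows are chr3:95882229-95882478 (minus strand), chr6:145865421-145865670 (minus strand), chr15:81811164-81811413 (plus strand) and chr7:45704997-45705246 (plus strand).

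The Ciart window held 3 E-boxes, the first bases of which lie 116, 58 and 44 bases before the start. Over all 32851 windows of this length in the table, 6.02% held an E-box and 0.0609% held 3 or more, a number looked up after the Ciart sequence was seen. The Bhlhe41 window and each Tef window held 1 E-box. The Dbp and Rora windows held none of the 5 motifs searched on both strands, which besides the E-box were CACGTT (an E-box variant, in 3.85% of windows), the D-boxes TTATGTAA and TTACGTAA (0.931%), the RORE half-sites TAGGTCA and TGGGTCA (5.38%) and the CRE TGACGTCA (1.55%). The Hlf window held 1 CRE, from 9 to 2 bases before the start, and the Nfil3 window 1 RORE half-site, from 12 to 6 bases before it. None of these motifs overlap one another in the windows. A match describes letters only.

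Libraries held 14721601 to 24618230 counts. Cpt1a stood at 319 to 620 CPM (counts scaled to a common library total after TMM) in the 8 control libraries and at 39.9 to 126 CPM in the 8 LKO libraries. Hepatocyte markers were abundant everywhere, the 8 of them summing to 59100 to 89200 CPM. One fasted LKO library, S47, stood apart in several clock genes. It held the least Dbp, Tef, Bhlhe40, Bhlhe41, Ciart and Rora and the most Nfil3 of its group. Among core clock genes, S47 had 9.63 CPM of Arntl (Bmal1) against 1.23 to 2.20 CPM in the 3 others, and 4.16 CPM of Per3 against 12.5 to 24.8 CPM. Nr1d1 in S47, at 157 CPM, lay within the 154 to 180 CPM of the others. S47 also stood apart in genes beyond the core clock, with 284 CPM of Por against 537 to 858 CPM. For the 8 genes described here, results that draw on fasted LKO are therefore also given without S47 where this ends a call or moves a value by over 1.5 times. In fasted control S43 leaned the same way, with the least Dbp, Tef and Ciart and the most Nfil3 of its group. S43 held 3.77 CPM of Arntl against 0.943 to 2.02 CPM in the rest of its group. For Dbp, Tef and Nfil3 the fasted genotype difference is therefore also given as a range over the fits that left out 1 library. The labels name no batch, and whether the numbered mice of a group were housed apart is not stated, so that p-values measure the spread between these libraries.

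Compared per kilobase of gene length over the 16 libraries, Dbp was the most abundant of the 8 genes at a mean of 42.7 CPM per kb (range 8.02 to 91.5). Tef (20.7, range 9.80 to 25.4) and Bhlhe40 (20.3, range 7.72 to 36.6 CPM per kb) came next and were not separated from each other. Nfil3 (10.4, range 5.11 to 15.8), Hlf (9.24, range 5.92 to 11.2) and Ciart (6.52, range 0.357 to 20.1 CPM per kb) also overlapped. Rora (2.16, range 1.69 to 2.56) and Bhlhe41 (0.754, range 0.079 to 2.18 CPM per kb) were lowest. The order changed with the state: in fasted control Dbp stood at 68.2 ± 17.1 and Bhlhe40 at 17.3 ± 3.46, and in refed control Dbp at 20.2 ± 11.6 and Bhlhe40 at 28.7 ± 5.61 CPM per kb (SD, n = 4).

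Some of these genes differed between refed and fasted livers, which also differ in hours since the fast began, and some differed between genotypes. Bhlhe40 rose with refeeding in both genotypes and Bhlhe41 fell in both, Dbp fell with refeeding in control livers, and Hlf rose in LKO livers. Between genotypes, Bhlhe40 and Ciart were lower after the fast in LKO, and no member was called in the refed state. A call is an adjusted p under 0.05 from the quasi-likelihood test of edgeR, adjusted by Benjamini-Hochberg over all 14488 genes and given below as the edgeR adjusted p. For refeeding in control 3 of 8 members were called, 1 higher and 2 lower, where 15.4% of all genes were called, 7.79% higher and 7.65% lower. For refeeding in LKO 3 of 8 were called, 2 higher and 1 lower, where 18.1% of all genes were called, 9.28% higher and 8.78% lower. For LKO against control when fasted 2 of 8 were called, 0 higher and 2 lower, where 12.2% of all genes were called, 5.75% higher and 6.48% lower. For LKO against control when refed 0 of 8 were called, where 3.63% of all genes were called, 2.28% higher and 1.35% lower. With so few members, none of these counts is read as more than a description. The 8 calls fall on 5 genes, and Tef, Nfil3 and Rora had none. The median log2 fold change of the 8 members was 0.10 and −0.01 for refeeding in control and LKO, and −0.29 and −0.11 for LKO against control when fasted and refed, beside medians over all genes of 0.009, −0.017, 0.018 and −0.013. Both refeeding comparisons share libraries with both genotype comparisons.

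**Figure D1:**
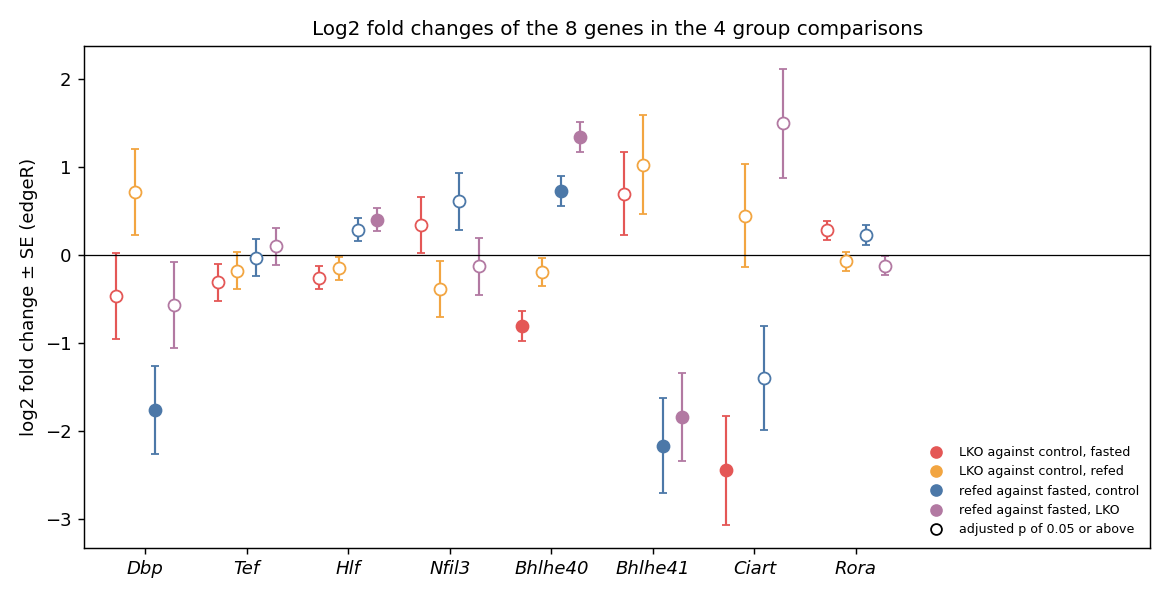
Log2 fold change with its SE (edgeR, 16 libraries) of each of the 8 genes (x axis) in 4 comparisons (colours); filled points have an adjusted p under 0.05 and open points do not. The filled points are Bhlhe40 in 3 comparisons, Bhlhe41 in both refeeding comparisons, and Dbp, Hlf and Ciart in 1 each, with Ciart at −2.45 the lowest.

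With a 16 h fast in both states, refed mice were killed 6 h later after the start of their fast than fasted mice. The clock hour of necropsy is not given in the sources used here, so food and hour of the day cannot be told apart in any refeeding result. In bulk liver RNA, fewer cells of a type and less RNA per cell cannot be told apart either.

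Of the PAR bZIP activators, Dbp (ENSMUSG00000059824, chromosome 7 from 45354512 to 45359627 on the plus strand; these and the following gene coordinates are those of the deposited tables, and the submitters' processing notes name mm39) varied most. Its 4 fasted control libraries held 274, 204, 185 and 153 CPM (S40 to S43), and its refed control libraries 38.1, 24, 82.5 and 96.7 CPM (S48 to S51). The highest refed control library lay below the lowest fasted control library, as for 10.1% of all genes. Dbp fell by 1.76 on the log2 scale (SE 0.50, edgeR adjusted p = 0.0267), from a mean of 204 ± 51.1 to 60.3 ± 34.8 CPM (SD, n = 4). This call was lost without S40 (−1.58, adjusted p = 0.0785), S48 (−1.59, 0.0794) or S49 (−1.49, 0.0647).

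In LKO livers the libraries S44 to S47 held 151, 172, 227 and 40.7 CPM of Dbp when fasted, and S52 to S55 held 37.9, 78.8, 139 and 142 CPM when refed. These groups overlapped, because S47 lay among the lowest refed libraries. The refeeding difference in LKO was −0.57 (SE 0.49, edgeR adjusted p = 0.465) and became −0.88 without S47 (0.192). Dbp did not pass between genotypes in either state: −0.47 (SE 0.49, edgeR adjusted p = 0.593) when fasted, or −0.16 without S47 (0.868), and 0.72 (SE 0.49, 0.467) when refed. With 1 library left out, the fasted genotype difference of Dbp ran from −0.75 to −0.16. The difference between its refeeding responses in the 2 genotypes, which is the same quantity as the difference between the knockout's effects in the 2 states, was 1.19 (SE 0.69, edgeR adjusted p = 0.411). The fall of Dbp in control livers is thus not shown to differ from its value in LKO livers. Dbp overlaps Sphk2 on the opposite strand over 737 bases, with Sphk2 at a mean of 74.2 CPM, and although the dUTP libraries keep strand, its use in counting is not stated, so that some of its counts are uncertain.

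Tef (ENSMUSG00000022389, chromosome 15 from 81686622 to 81711064) stayed within a narrow band outside 1 fasted library. Fasted control libraries held 181, 198, 200 and 132 CPM and fasted LKO libraries 133, 169, 195 and 77.1 CPM. Refed control libraries held 166, 163, 189 and 181 CPM and refed LKO libraries 136, 130, 171 and 181 CPM. S47 was the lowest at 77.1 CPM, and the other 15 libraries lay between 130 and 200 CPM. All 4 comparisons overlapped, and the log2 fold changes ran from −0.31 (SE 0.21, edgeR adjusted p = 0.388) for fasted LKO against control to 0.10 (SE 0.21, 0.783) for refeeding in LKO. Without S47 the fasted genotype difference was −0.10 (edgeR adjusted p = 0.742) and the refeeding difference in LKO −0.10 (0.722). Over the fits that left out 1 library the fasted genotype difference of Tef ran from −0.49 to −0.10.

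Hlf (ENSMUSG00000003949, chromosome 11 from 90227362 to 90281721) varied least of the activators within each refed group. Fasted control libraries held 46, 73.0, 64.2 and 54.4 CPM and fasted LKO libraries 39.5, 62.8, 50.1 and 45.4 CPM. Refed control libraries held 72.5, 71.1, 74.6 and 72.2 CPM and refed LKO libraries 66.7, 60.4, 67.7 and 66.7 CPM. The refed control libraries lay within 1.05-fold of each other, against 1.59-fold in each fasted group. Hlf rose by 0.40 with refeeding in LKO (SE 0.13, edgeR adjusted p = 0.0470), with overlap between the groups at S45. The call is at the threshold: of the 8 fits that left out 1 library it was kept in 1, with edgeR adjusted p from 0.00701 to 0.142, and without S47 the value was 0.37 (0.108). Between genotypes in the fasted state Hlf stood at −0.26 (SE 0.13, edgeR adjusted p = 0.223). The refeeding difference in control was 0.29 (SE 0.13, edgeR adjusted p = 0.155). Every refed LKO library lay below every refed control library, a separation that 5.03% of all genes showed downwards and 6.7% upwards (11.7% in all), but the difference of −0.15 (SE 0.13) did not pass (edgeR adjusted p = 0.602).

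**Figure D2:**
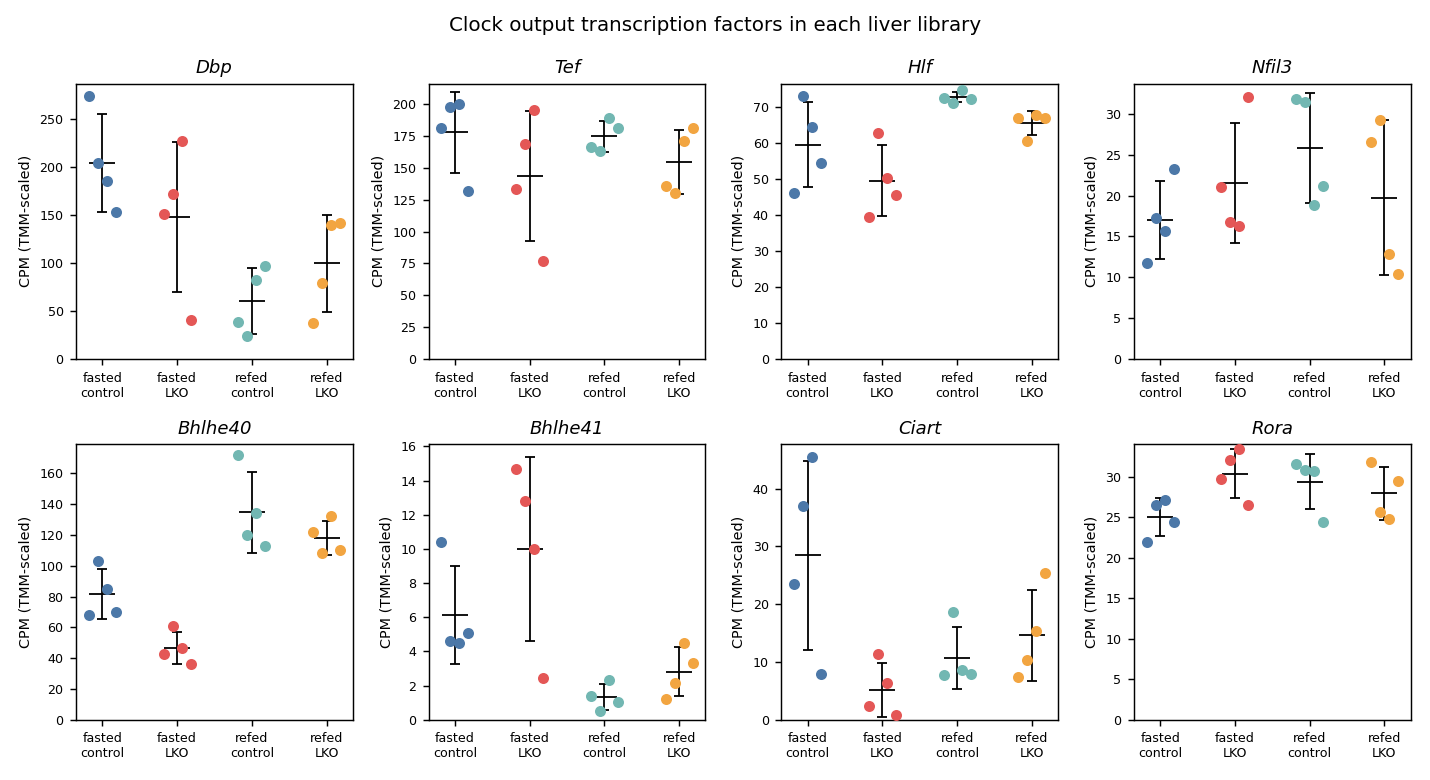
CPM (TMM-scaled, y axis from 0) of each gene in the 16 libraries, 4 points per group in library order, with the mean and SD of the group in black. Bhlhe40 lies at 36.3 to 60.7 CPM in fasted LKO, below its 67.9 to 103 CPM in fasted control, and the lowest fasted LKO point of Dbp, Tef, Bhlhe41 and Ciart is in each case S47.

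Nfil3 (ENSMUSG00000056749, chromosome 13 from 53121245 to 53135109), the repressor at D-boxes, was called in no comparison. It stood at 11.7, 17.2, 15.7 and 23.2 CPM in fasted control and at 21.0, 16.7, 16.3 and 32 CPM in fasted LKO. Refed control libraries held 31.8, 31.4, 18.8 and 21.2 CPM and refed LKO libraries 26.5, 29.2, 12.9 and 10.4 CPM. The refed libraries of each genotype split into a high and a low pair, and all comparisons overlapped. For refeeding in control the log2 fold change was 0.61 (SE 0.32, edgeR adjusted p = 0.216). The authors' deposited table lists this comparison at 0.61 with an adjusted p of 0.0489, a call that edgeR, DESeq2 and limma-voom did not make here. In LKO the same value was −0.13 (SE 0.32, edgeR adjusted p = 0.824), or 0.13 without S47 (0.840). Between genotypes it was 0.34 (SE 0.32, edgeR adjusted p = 0.537) when fasted, 0.09 without S47 (0.897), and −0.39 (SE 0.32, 0.559) when refed. The fasted genotype difference of Nfil3 ran from 0.09 to 0.53 with 1 library left out.

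Nfil3 and Dbp tended to opposite ends of a group. In 3 of the 4 groups the 2 libraries with the least Dbp were the 2 with the most Nfil3, the exception being fasted control. The library with the least Dbp was also the one with the least Tef in 3 of 4 groups, the least Ciart in 3 of 4 and the least Bhlhe41 in 3 of 4. For Ciart the exception was reversed: in refed control S49 held the least Dbp and the most Ciart (18.7 against 7.67 to 8.56 CPM). The remaining members matched less. Hlf shared its lowest library with Dbp only in refed control, and Bhlhe40 and Rora shared theirs only in fasted LKO. The library with the least Dbp held the most Arntl, the gene of BMAL1, in all 4 groups: S43 (3.77 CPM of Arntl), S47 (9.63), S49 (12.2) and S52 (7.98 CPM). These matches were looked for after the values had been seen, and mice of a group have no order.

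Among the E-box repressors, Bhlhe40 (ENSMUSG00000030103, chromosome 6 from 108637590 to 108643886) gave the firmest differences of all 8 genes. It stood at 67.9, 103, 85.2 and 70.0 CPM in fasted control and at 42.9, 60.7, 46.7 and 36.3 CPM in fasted LKO. In the refed state control libraries held 172, 120.0, 134 and 113 CPM and LKO libraries 122, 108, 132 and 110.0 CPM. Every fasted LKO library lay below every fasted control library, as for 8.57% of all genes (8.3% separated upwards, 16.9% in all). Every refed library lay above every fasted one within both genotypes, as for 10.4% of all genes in control and 10.6% in LKO, where 20.4% and 20.6% separated in either direction and 9.95% separated downwards in LKO. Bhlhe40 was lower in fasted LKO by a log2 fold change of −0.81 (SE 0.17, edgeR adjusted p = 0.00533), at 46.6 ± 10.3 against 81.6 ± 16.3 CPM (SD, n = 4).

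With refeeding Bhlhe40 rose by 0.73 in control (SE 0.17, edgeR adjusted p = 0.00853) to 135 ± 26.4 CPM and by 1.34 in LKO (SE 0.17, edgeR adjusted p = 8.49e-05) to 118 ± 11.2 CPM (SD, n = 4). These 3 calls were kept in each of the 8 fits that left out 1 library and in each of the 7 other settings tried. When refed, the genotypes overlapped and differed by −0.19 (SE 0.16, edgeR adjusted p = 0.587). The knockout's effect differed between the states by 0.61 (SE 0.23), which missed the threshold with an edgeR adjusted p of 0.196. In the authors' deposited tables the log2 fold changes are −0.81, 0.73 and 1.35 for the 3 called comparisons.

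Bhlhe41 (ENSMUSG00000030256, chromosome 6 from 145803969 to 145811284) moved with refeeding in the direction opposite to its paralog. It was the scarcest of the 8 genes, with 10 to 59 counts a library in refed control. It stood at 10.4, 4.61, 4.49 and 5.07 CPM in fasted control and at 1.41, 0.531, 2.35 and 1.02 CPM in refed control, with no overlap. In this comparison 10.1% of all genes separated downwards and 20.4% in either direction. Bhlhe41 fell by 2.17 in control (SE 0.54, edgeR adjusted p = 0.0137). That call was lost without S40, the highest library (−1.78, edgeR adjusted p = 0.0565), and under limma-voom (−2.25, limma adjusted p = 0.0566).

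In LKO, Bhlhe41 stood at 14.7, 12.8, 10 and 2.42 CPM when fasted and at 1.23, 2.16, 4.51 and 3.34 CPM when refed, so that the groups overlapped only at S47. It fell by 1.84 with refeeding (SE 0.50, edgeR adjusted p = 0.0170), or by 2.16 without S47 (0.00250), and the call was lost without S44 (−1.59, 0.0544) or S52 (−1.58, 0.0573). Between genotypes the mean was higher in LKO in both states without passing: 0.70 (SE 0.47, edgeR adjusted p = 0.371) when fasted and 1.03 (SE 0.56, 0.346) when refed. Of the 4 fasted LKO libraries of Bhlhe41, 3 lay within or above the range of fasted control, and S47 lay below it.

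Ciart (ENSMUSG00000038550, chromosome 3 from 95785815 to 95789563), whose window carries the 3 E-boxes printed above, had the largest genotype difference among the members. It stood at 23.5, 36.9, 45.4 and 7.91 CPM in fasted control and at 2.30, 11.3, 6.39 and 0.808 CPM in fasted LKO. Refed control libraries held 7.67, 18.7, 8.56 and 7.94 CPM and refed LKO libraries 7.47, 10.3, 15.4 and 25.4 CPM. In fasted control 3 libraries lay above every fasted LKO library, while S43 fell among the LKO libraries. Ciart was lower in fasted LKO by a log2 fold change of −2.45 (SE 0.62, edgeR adjusted p = 0.0175), at 5.20 ± 4.71 against 28.4 ± 16.4 CPM (SD, n = 4). The call was kept without S47 (−2.10, adjusted p = 0.0327) and lost without S42 (−2.14, 0.0529), without S44 (−2.19, 0.0594) and with only the 2 groups in the fit (−2.44, 0.0502).

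Ciart's refeeding differences had opposite signs in the genotypes, and neither passed: −1.40 in control (SE 0.59, edgeR adjusted p = 0.118) and 1.5 in LKO (SE 0.62, 0.108). With 1 library left out the value in LKO ran from 1.08 to 2.21, and it was called without S45 only (2.21, edgeR adjusted p = 0.0302). The difference between them was 2.90 (SE 0.85, unadjusted p = 0.00356 in edgeR's quasi-likelihood test), the largest of the 8 genes, and it did not pass over all genes (edgeR adjusted p = 0.110). It was called in 1 of 16 fits that left out a library, without S45 (3.61, edgeR adjusted p = 0.0497). When refed, the genotypes differed by 0.45 (SE 0.59, edgeR adjusted p = 0.742). The whole of Ciart lies within the lncRNA C920021L13Rik on the opposite strand, which held a mean of 1.02 CPM.

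Rora (ENSMUSG00000032238, chromosome 9 from 68561068 to 69295528), the activator at RORE elements, was nearly level. Its 16 libraries lay between 22 and 33.4 CPM. Fasted control libraries held 22, 26.6, 27.2 and 24.5 CPM, fasted LKO libraries 29.7, 32.1, 33.4 and 26.5 CPM, refed control libraries 31.6, 30.9, 30.8 and 24.4 CPM and refed LKO libraries 31.9, 25.7, 24.8 and 29.5 CPM. The largest log2 fold change was 0.28 for fasted LKO against control (SE 0.11, edgeR adjusted p = 0.107), and without S47 it was 0.34 (0.0625). The other comparisons ran from −0.12 to 0.23, and none passed.

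The difference between the knockout's effects in the 2 states was called for 0 of 8 members by edgeR, DESeq2 or limma-voom, where edgeR called 0.538% of all genes. An unadjusted p under 0.05 was reached by 3 of 8 members, Ciart, Bhlhe40 and Rora, and by 16.5% of all genes. Beside the values given above for Dbp, Bhlhe40 and Ciart, the differences were −0.35 for Rora (SE 0.15, edgeR adjusted p = 0.258), −0.73 for Nfil3 (SE 0.45, 0.435), 0.33 for Bhlhe41 (SE 0.72, 0.856), 0.13 for Tef (SE 0.30, 0.866) and 0.11 for Hlf (SE 0.19, 0.808). Without S47 they were −0.48 for Nfil3 (edgeR adjusted p = 0.617), 0.01 for Bhlhe41 (0.994) and −0.08 for Tef (0.891). For LKO against control in the refed state 0 of 8 were called by any of the 3 tools. An unadjusted p under 0.05 was reached there by 0 of 8 members and by 18.4% of all genes. The SEs there ran from 0.11 for Rora to 0.59 for Ciart, and a p that misses the threshold does not show that the genotypes are alike. For refeeding in control an unadjusted p under 0.05 (edgeR) was reached by 6 of 8 members and 30.0% of all genes. For refeeding in LKO it was reached by 4 of 8 (31.0%), and for LKO against control when fasted by 3 of 8 (26.7%).

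Beside these results, markers of other cell types were summed over each of 9 lists. Between fasted control and fasted LKO, where Bhlhe40 and Ciart were lower, 2 of the 9 sums did not overlap. The 8 hepatocyte markers summed to 69600 to 77100 CPM in control and 59500 to 67700 CPM in LKO, with 1 of 8 called lower. The 4 adipocyte markers summed to 9.81 to 58.1 CPM in control and 0.448 to 9.63 CPM in LKO, and only Cfd was abundant enough to be tested. Between refed and fasted control none of the 9 sums separated, and in LKO 1 did, the 4 neutrophil markers, with 1 tested. Of single markers, 1 stellate marker was higher and 1 red blood cell marker and Cfd lower in fasted LKO, 1 endothelial marker was higher in refed LKO, 1 stellate marker was higher with refeeding in control and 1 cholangiocyte marker, Krt19, lower with refeeding in LKO (−2.53, edgeR adjusted p = 0.0496). The Krt19 value rests on S44, whose cholangiocyte markers summed to 45.9 CPM against a group median of 9.11 CPM, and without S44 it was 0.24 (0.676). No macrophage, lymphocyte or neutrophil marker was called. The 8 lymphocyte markers summed to 4.74 to 6.37 CPM in refed control and 6.40 to 10.2 CPM in refed LKO, without overlap. Ly6g was at 0 in all 4 libraries of both refed groups, Retnlg in refed LKO and Adipoq in refed control. The part of these shifts in the members' values was not tested.

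The spread within groups was itself a feature of several members. Over 9344 genes with a mean of at least 5 CPM, the range of log2 CPM across the 4 libraries of a group had medians of 0.31 and 0.37 in the fasted groups (control, then LKO) and 0.36 and 0.31 in the refed groups. Ciart's range was 2.5, 3.64, 1.28 and 1.75 in that order, wider than all but 0.407%, 0.278%, 3.75% and 0.942% of these genes. Dbp's range was 0.84, 2.48, 2.01 and 1.90, and Bhlhe41's 1.19, 2.54, 1.94 and 1.79. Rora (0.30 to 0.37) stayed near the median in each group, and Hlf in the refed groups was narrower, with 0.07 in control and 0.16 in LKO.

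**Figure D3:**
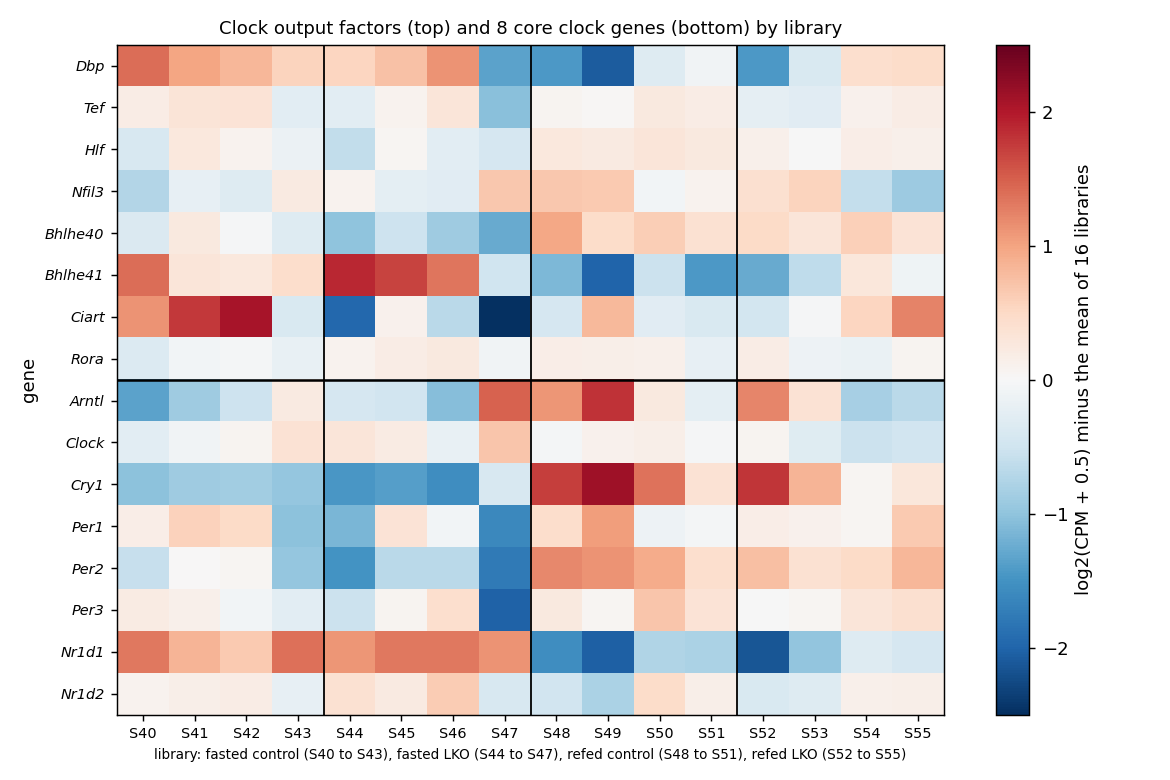
Colour gives log2(CPM + 0.5) of each gene (rows) in each library (columns) minus the gene's mean over the 16 libraries, with the 8 output factors above the line and 8 core clock genes below. In S47 Ciart, Per3 and Dbp are low and Arntl is high relative to the other fasted LKO libraries, and Cry1 and Per2 are higher and Nr1d1 lower in the refed columns.

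The core loop was read from a list of 13 genes, of which 12 were tested and Npas2 was too scarce. With refeeding, 2 rose and 1 fell in control, and 2 rose and 2 fell in LKO, where 15.4% and 18.1% of all genes were called in either direction. Cry1 and Per2, repressors of the loop, rose by 2.61 and 1.28 in control (edgeR adjusted p = 0.00118 and 0.00437) and by 2.20 and 1.73 in LKO (0.00203 and 0.000419). Nr1d1, which encodes REV-ERB alpha, fell by 2.29 and 2.05 (edgeR adjusted p = 0.00072 and 0.000627). Clock fell by 0.61 in LKO (edgeR adjusted p = 0.0267). This call was lost in 5 of 8 fits that left out 1 library, the fit without S47 among them (highest 0.0929). Between genotypes 0 of 12 were called in either state. An unadjusted p under 0.05 was reached by 1 when fasted, Per2 (−0.78, edgeR adjusted p = 0.0663), and by 0 when refed. Over all genes these shares were 26.7% when fasted and 18.4% when refed. DESeq2 called 1 of 12 when fasted and 0 when refed, and limma-voom called 0 in both.

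Of 8 liver targets of the PAR bZIP factors, among them the P450 reductase Por, the haem synthesis enzyme Alas1 and the xenobiotic receptor Nr1i3, 1 was called between genotypes by edgeR. Cyp2a5 was lower in LKO by a log2 fold change of −2.27 when fasted and −1.27 when refed (edgeR adjusted p = 0.000238 and 0.0173) and rose by 1.12 with refeeding in LKO (0.00868). The refed call was lost without S53, S54 or S55 (highest edgeR adjusted p = 0.0649). DESeq2 called 2 of the 8 when refed, Cyp2a5 and Nr1i3 (−0.60, DESeq2 adjusted p = 0.0217, against 0.0613 in edgeR). The counts of Cyp2a5 are uncertain, since Cyp2a4 is a near-identical copy. None of the 8 was called for refeeding in control, where Dbp fell, by edgeR, DESeq2 or limma-voom. In that comparison 0 of the 8 had an unadjusted p under 0.05, against 30.0% of all genes. Por stood at −0.49 there and Alas1 at 0.53 (edgeR adjusted p = 0.209 and 0.434). The median of the list was 0.11, beside 0.009 over all genes.

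Of 10 other genes with a daily rhythm in liver, 2 rose with refeeding in control and 3 in LKO, and none fell. Over all genes 7.79% were called higher in control and 9.28% in LKO, and 7.65% and 8.78% lower. Nampt, the rate-limiting enzyme of NAD salvage, rose by 0.81 and 1.03 (edgeR adjusted p = 0.00226 and 0.000234). Lonrf3, which was scarce, rose in control (1.94, edgeR adjusted p = 0.0186), from 2 to 8 counts a library when fasted to 10 to 31 when refed. Tspan4 (0.99, edgeR adjusted p = 0.000259) and the kinase gene Wee1 (0.92, 0.0375) rose in LKO. Between genotypes Tspan4 was lower when LKO mice were fasted (−0.94, edgeR adjusted p = 0.000753) and Gys2, liver glycogen synthase, higher (1.02, 0.0326, with overlap). When refed, none of the 10 was called by edgeR, DESeq2 or limma-voom. An unadjusted p under 0.05 was reached there by 2 of the 10 and by 18.4% of all genes. The Gys2 call was lost under limma-voom (0.81, limma adjusted p = 0.0754) and in 6 of 8 fits that left out 1 library, with 0.57 without S46 (edgeR adjusted p = 0.133). With 1 library left out the calls of Lonrf3 (without S42 or S48, highest edgeR adjusted p = 0.0524) and Wee1 (in 5 of 8 fits, that without S47 among them, 0.0937) were also lost. Usp2, a deubiquitinase gene driven by the clock, stood at 57.5, 74.1, 84.0 and 17.9 CPM in fasted control and at 20.2, 34.7, 39.8 and 4.04 CPM in fasted LKO. Its lowest libraries were S43 and S47, as for Tef, and its difference of −1.24 did not pass (edgeR adjusted p = 0.103).

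Genes that mark the feeding state were read from a list of 8, with 7 tested. In control 3 rose with refeeding and none fell: Srebf1 (1.05, edgeR adjusted p = 0.0159) and Fasn (1.49, 0.0157), which drive and carry out fat synthesis, and G6pc (1.49, 0.0102), an enzyme of glucose output that food is known to lower. In LKO 2 rose and 2 fell. Refeeding calls covered 15.4% of all genes in control and 18.1% in LKO. Srebf1 and Fasn rose by 2.61 and 2.70 in LKO (edgeR adjusted p = 3.32e-05 and 0.000308), and the fasting genes Igfbp1 and Irs2 fell by 2.53 and 1.98 in LKO (0.00272 and 0.00142). Between genotypes in the fasted state, where Bhlhe40 and Ciart were lower, Srebf1 (−2.25) was lower too and Igfbp1 (1.66) and Irs2 (1.51) higher, with edgeR adjusted p of 0.000238, 0.0352 and 0.0114. Among fasted libraries the groups did not overlap for Srebf1, as for 8.57% of all genes downwards. They overlapped for Igfbp1, where S45 held 20.2 CPM against 23.6 to 39.1 CPM in control, and touched for Irs2 at S45. The fasted Igfbp1 call was lost under limma-voom (1.31, limma adjusted p = 0.111) and in 6 of 8 fits that left out 1 library, with 1.18 without S46 (edgeR adjusted p = 0.135). The refeeding calls in control were lost without S48 for Srebf1 (highest edgeR adjusted p = 0.0615) and without S40 or S49 for Fasn (0.0575). Of 6 genes that respond to glucocorticoids, a hormone signal that several clock genes answer, Tsc22d3 rose with refeeding in LKO (1.52, edgeR adjusted p = 0.0315). This call was lost in 6 of 8 fits that left out 1 library, the fit without S47 among them (highest 0.0916). None of the 6 was called in control or between genotypes, and DESeq2 and limma-voom called 0 in these comparisons. An unadjusted p under 0.05 was reached by 1 of the 6 for refeeding in control (30.0% of all genes). Between genotypes it was reached by 2 when fasted (26.7% of all genes) and 0 when refed (18.4%).

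For each member the 3 genes most like it were taken by Pearson's r of log2 CPM over the 16 libraries, among 8894 protein-coding genes. These are descriptions, since libraries of a group share diet, state and genotype. Dbp was most like Slc2a5 (0.95), Slc5a6 (0.91) and Pcsk4 (0.89). Tef was most like 2 rhythmic genes of the lists above, Per3 (0.89) and Usp2 (0.84), and then Serpina3k (0.81). Bhlhe40 was most like Slc22a30 (0.96), Col27a1 (0.95) and the core clock gene Per2 (0.95). Hlf was most like Rhobtb1 (0.93), Dcun1d2 (0.92) and Sord (0.91). Nfil3 was most like Abtb2 (0.90), Tbck (0.84) and Tars (0.82). Bhlhe41 was most like Gsk3a (0.92), Hook2 (0.91) and Jade1 (0.91), Ciart most like Efhd2 (0.90), Nfix (0.87) and Ogfrl1 (0.85), and Rora most like Kat2b (0.86), Spin1 (0.86) and Scarb2 (0.85). No member was among another member's 3 closest genes.

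**Figure D4:**
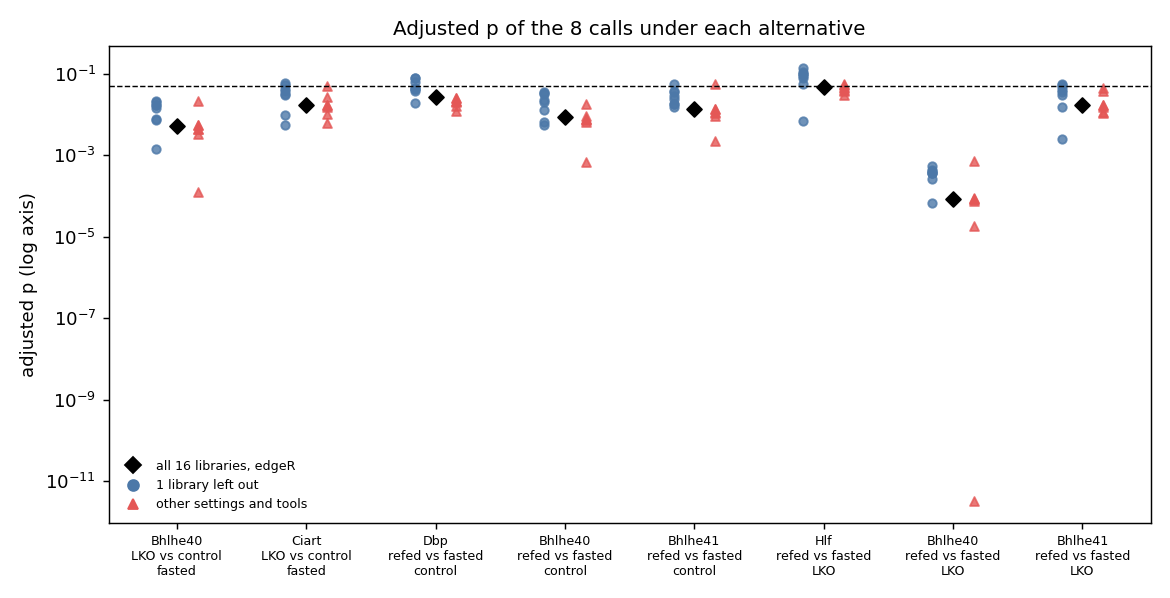
Adjusted p (log axis, y) of the 8 calls (x axis) in the fit of all 16 libraries (diamonds), with 1 library left out (circles) and under other settings and tools (triangles), with the dashed line at 0.05. The 3 calls of Bhlhe40 stay under the line throughout, while those of Hlf, Dbp, Ciart and Bhlhe41 cross it.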

How the data were processed

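RNA counts of 16 liver libraries were analysed, 4 per group. Per the submitters' processing notes, HISAT2 2.0.5 and the mm39 build were used. The counting tool, its use of strand and the annotation are not given in the sources used here. The authors deposited 4 tables, each with 8 libraries. Raw counts per gene were used, whole numbers whose totals differ by library. The authors' group means of normalized counts (a signal whose size factors are not stated), their log2 fold changes and their p-values come from the same deposited tables and were used where the authors' values are printed. Gene lengths, in bases, are also the authors'. A further 64 per-library columns were not used. Count columns (S40 to S55) match no sample title. Each library's group is the heading shared by the 2 tables that hold it, and no replicate number could be attached. Joining gave 25803 genes, and 0 counts differed between tables. For 3148 genes not listed in every table, the missing libraries were set to 0.

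Counts were fitted in R 4.3.3 with edgeR 4.0.16: filterByExpr (14488 genes), TMM factors (0.941 to 1.07), glmQLFit on 4 groups of 16 libraries, and glmQLFTest for 5 contrasts, with Benjamini-Hochberg adjustment over all genes. SE is the log2 fold change divided by the square root of F. The fit was tested on simulated data. DESeq2 1.42.0 and limma 3.58.1 (voom) were alternatives, with other scalings, filters and each library left out. CPM uses the TMM-scaled total. The named genes were the 8 members, Cpt1a, the genes of 5 fixed lists and the 3 genes most like each member. Members and lists were chosen with earlier results of these data known, and the 9 marker lists likewise. Genes of the lists quoted with values were picked after these were seen. Some genes of the core clock and feeding lists are not reported here and are left out of those lists' counts.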

Additional observations from a re-analysis of the deposited data

Results flagged for a closer look

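Among the 8 members and Cpt1a, 36 groups of 4 libraries were checked for a single library far from the rest (a gap to the nearest library above Dixon's critical value), which chance alone gives in about 1 group of 20. In 4 groups there was one. Hlf in refed LKO stood at 60.4 CPM in S53 against 66.7 to 67.7 CPM in the others. Bhlhe41 in fasted control stood at 10.4 CPM in S40 against 4.49 to 5.07 CPM. Ciart in refed control stood at 18.7 CPM in S49 against 7.67 to 8.56 CPM. Rora in refed control stood at 24.4 CPM in S51 against 30.8 to 31.6 CPM. The low values of S47 in fasted LKO did not meet this measure for any member.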

How the results depend on the processing

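The count of members called for LKO against control when fasted was 1 to 3 over the fits that left out 1 library and 1 with only the 2 groups in the fit (Bhlhe40), against 2. It was 1 to 3 for refeeding in control (1 without S40), 1 to 4 for refeeding in LKO (1 without S44 or S52, 4 without S45) and 0 to 1 for the difference between the states. For LKO against control when refed it was 0 in each setting run. Only values near 0 changed sign, and only in fits that left out 1 library. Those fits ran from −0.14 to 0.03 for Tef under refeeding in control, from −0.10 to 0.29 for Tef and from −0.37 to 0.13 for Nfil3 under refeeding in LKO. For the difference between the states they ran from −0.08 to 0.31 for Tef, −0.00 to 0.26 for Hlf and −0.05 to 0.83 for Bhlhe41. None of these values passed, and the cause was not tested. The scaling of libraries moved the median of all genes by less than 0.1 on the log2 scale. Over all genes, fits that left out 1 library called 1048 (without S44) to 1985 genes for LKO against control when fasted, against 1772 with all libraries, and 1220 (without S40) to 2483 for refeeding in control, against 2238. For LKO against control when refed they called 197 (without S48) to 517 genes, against 526, and DESeq2 called 924. For the difference between the states they called 8 (without S48) to 282 (without S49), against 78, with 197 at a filter of 5 CPM and 458 under DESeq2. Hlf was called for fasted LKO against control without S45 only (−0.41, edgeR adjusted p = 0.0399). Of 28 calls in the 5 pathway lists, 19 were kept in every fit that left out 1 library, a check chosen after seeing the data. No paired analysis was possible because the count columns carry no replicate number. Bhlhe41 had the lowest counts of the members, down to 10 in S49, which limits its precision.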
